A study of Saccharomyces cerevisiae with 2 samples.

Results

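The yeast retrotransposons Ty1, Ty2 and Ty3 were followed through a pair of RNA crosslinking libraries, by the reads counted at their Gag-Pol reading frames. Of 42 listed Gag-Pol frames, 41 occurred as protein-coding rows and are the members described here, out of 2635 named features seen in either library. They comprise 29 Ty1 frames, 9 Ty2 frames, 2 Ty3 frames and YLR035C-A, a truncated frame whose family was left unassigned. The remaining listed frame, YNL054W-B, stood in the pseudogene class and is reported separately. Family membership follows the standard nomenclature of the elements, since neither file annotates it.

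The data come from CRAC, in which a tagged protein is UV-crosslinked to RNA in living Saccharomyces cerevisiae, purified under denaturing conditions, and the attached RNA is copied and sequenced. The tested library came from cells carrying Bud22 fused to a His-TEV-protein A tag, and the control from W303 cells without a tag, where any RNA recovered is background. According to the labels both cultures were exposed to 4-thiouracil for 4 h, a photoreactive uracil analogue, and then to 365 nm light for 30 min. For the control the labels conflict, since the growth description mentions the tagged protein but the genotype says wild type, and the genotype was followed. Each group has 1 library, so there is no replicate error and no test, and every comparison is between these libraries. W303 differs from the strain of the yeast reference genome in the Ty copies it carries, so a row here is a place where reads align and not a copy shown to be present.

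Ty1, Ty2 and Ty3 are long terminal repeat retrotransposons that copy themselves through an RNA intermediate inside virus-like particles. Their RNA encodes Gag, the structural protein of the particle, followed by Pol, which holds protease, integrase and reverse transcriptase. Ribosomes reach Pol only by shifting frame near the end of Gag, and the Gag-Pol frames counted here span both parts. BUD22, a gene for a nucleolar factor of small ribosomal subunit assembly, is also known from genetic work as a host gene that Ty1 needs for efficient transposition. Noncoding RNAs antisense to the Gag region of Ty1 have been described in the control of its copy number.

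In the Bud22 library no Ty frame held more than a single distinct read entry. Exactly 16 of the 41 frames had reads with Bud22, all of them Ty1, and each listed 57 sense reads, 0 antisense reads and 1 distinct read entry. Entries are read here, from the values, as the number of different reads behind a feature, so 1 entry with 57 reads would be 57 copies of 1 read. The values were identical at all 16 frames, and a read that aligns to several copies is counted at each of them. In the control all 41 frames had sense reads, and 35 also had antisense reads.

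The most counted Ty1 copies were YER138C, YML039W and YOL103W-B, which tied. YER138C had 57 sense reads on 1 entry in the Bud22 library, against 88 sense and 13 antisense reads on 48 entries in the control. YML039W and YOL103W-B had the same values as YER138C in both libraries. Because a read was counted at each repeat copy, the number of Ty1 reads lies between this copy's count and the sum over copies, which was 912 with Bud22 and 2119 in the control for sense reads. If the 16 rows of the Bud22 library share their entry, 57 reads are its whole Ty1 signal.

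Other copies with the 57 Bud22 reads differed in the control. YGR038C-B had 57 reads with Bud22, against 86 sense and 21 antisense reads on 49 entries in the control. YLR157C-B and YPL257W-B had 57 reads each with Bud22, against 84 sense reads each in the control. At the low end, YHR214C-B and YPR158C-D had 57 reads each with Bud22, against 62 sense reads each in the control. Over these 16 copies control sense reads had a lowest value of 62, a median of 82.5 and a highest value of 88, and at every one of them the control count exceeded the Bud22 count.

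The 13 remaining Ty1 copies had no read in the Bud22 library. Their control sense reads had a lowest value of 50, a median of 65.0 and a highest value of 86, a range that overlaps that of the 16 copies with Bud22 reads. YDR098C-B is the clearest case, with 0 reads in the Bud22 library against 86 sense and 21 antisense reads on 49 entries in the control. YGR038C-B had the same 3 control values and 57 reads with Bud22, so copies with equal control counts differed in the Bud22 library. YAR009C, a truncated frame that holds Pol but not Gag, had 0 reads with Bud22 against 74 sense and 0 antisense reads on 35 entries in the control. The unassigned YLR035C-A had 0 reads with Bud22 against 51 sense and 0 antisense reads on 21 entries in the control. YNL054W-B in the pseudogene class had 0 reads with Bud22 against 62 sense and 20 antisense reads on 37 entries in the control, within the range of the Ty1 members.

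Ty2, a close relative of Ty1, and Ty3, an element of another class that also encodes Gag and Pol, gave no reads with Bud22. Across the 9 Ty2 copies the control held a lowest value of 14, a median of 16.0 and a highest value of 17 sense reads, on 8 to 11 entries. YDR210W-B and YLR410W-B, the most counted Ty2 copies, had 0 reads each with Bud22 against 17 sense reads each in the control. The Ty3 copies YGR109W-B and YIL082W-A had 0 reads each with Bud22 and 1 sense read each in the control, with 3 and 4 antisense reads. The control sense counts of Ty1 (50 to 88), Ty2 (14 to 17) and Ty3 (1 and 1) did not overlap. They are counts per frame, not per length, and reads shared between families cannot be separated in these tables.

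**Figure D1:**
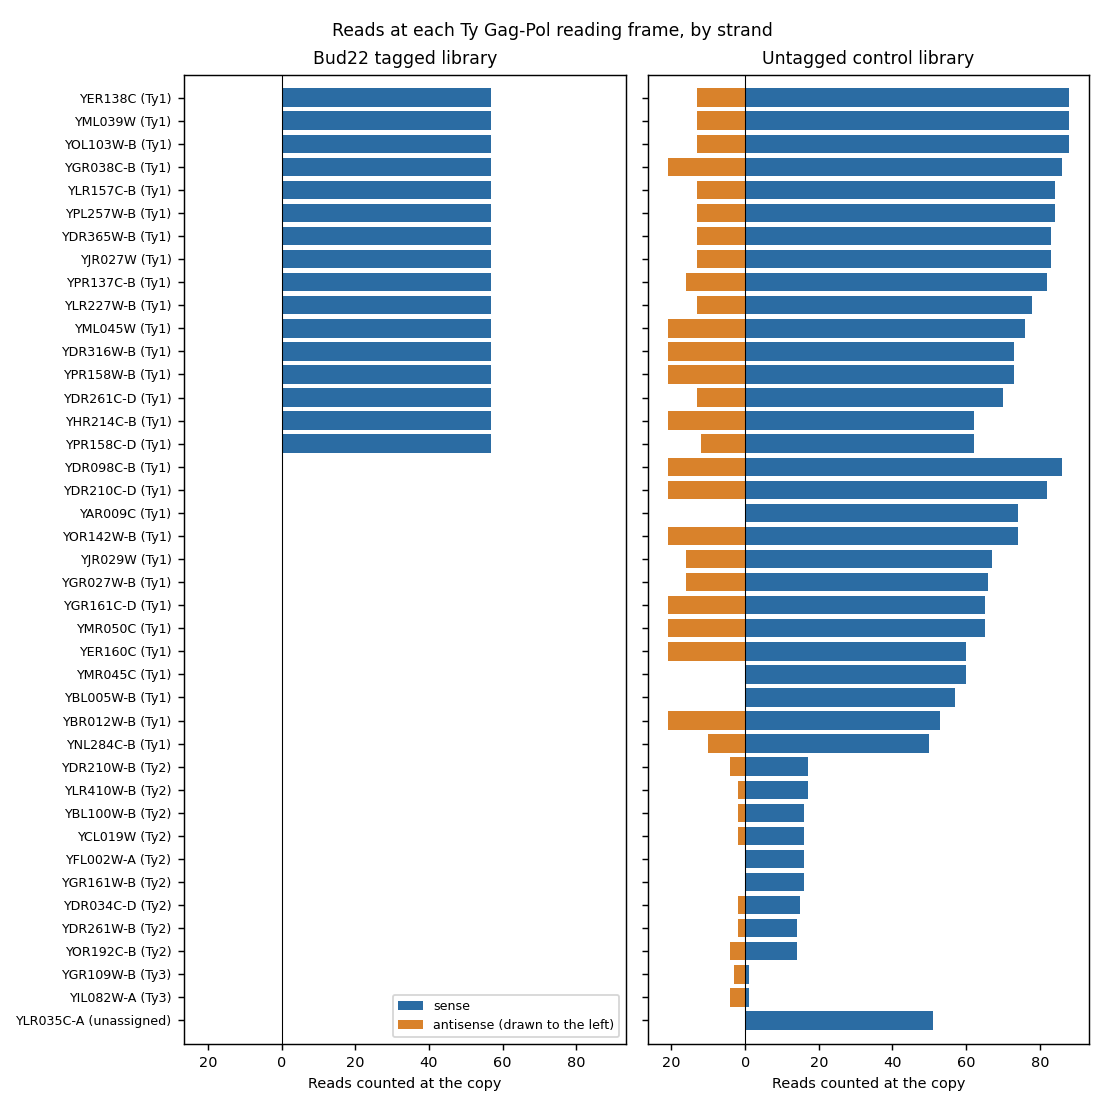
Reads counted at each of the 41 Ty Gag-Pol frames (one row per copy, family in brackets), sense to the right of 0 and antisense to the left, in the Bud22 tagged library (left) and the untagged control (right). With Bud22 16 Ty1 copies sit at 57 sense reads and every other copy at 0, whereas in the control all copies have sense reads, from 1 at the Ty3 copies to 88 at YER138C, YML039W and YOL103W-B.

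Whether Ty1 was lower with Bud22 depended on the total it was set against. Over the sense reads of all named features (215982 with Bud22 and 132895 in the control), YER138C took 0.0264% with Bud22 and 0.0662% in the control, a ratio of 0.399 with an exact 95% interval of 0.280 to 0.562. The total with Bud22 is mostly tRNA and rRNA. Over protein-coding reads alone, with each Ty family entered by 1 copy, YER138C took 0.946% with Bud22 (0.717 to 1.22) and 0.739% in the control (0.593 to 0.909). That ratio was 1.28 (0.901 to 1.81), an interval that includes 1. A single row, YLR154C-G, a short frame inside the 25S rRNA gene, accounted for 57.1% of that total in the Bud22 library (3439 reads), against 42.1% in the control (5019 reads). Without this row, an alternative chosen after seeing the data, the ratio was 1.73 (1.21 to 2.44), so the direction by reads turned with the total used. All these intervals cover counting error only, since copies made by PCR are not independent molecules.

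Entries placed the most counted Ty1 copy lower against all named features and gave no settled direction against messenger RNA. YER138C held 1 of 5920 entries with Bud22 against 48 of 37130 in the control, which gave a ratio of 0.131 (0.00324 to 0.764). Leaving out the Gag part, where the control's antisense reads lie, the counts were 1 entry against 39 and the ratio 0.161 (0.00397 to 0.9504). Over the entries of protein-coding features with 1 copy per Ty family (366 with Bud22 and 4845 in the control), the ratio was 0.276 (0.00684 to 1.61), and without YLR154C-G it was 0.326 (0.00809 to 1.90), intervals that include 1. With a single Bud22 entry, any Ty1 ratio rests on that entry.

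For copies without Bud22 reads the fold was taken against a floor of 3 reads in the Bud22 library. Such a fold leaves out the counting error of the control and is not a lower bound. Against all named features YDR098C-B was 46.6-fold lower by reads at this floor, the greatest such fold among members, and YDR210W-B 9.21-fold lower. The exact upper limits of their read ratios, 0.0270 and 0.149, allow smaller differences than these folds. Both folds hold for reads and not for molecules, since the floor of 3 reads is below the 36.5 reads behind the average Bud22 entry. By entries YDR210W-B had 0 with Bud22 against 11 in the control, and the upper limit of its ratio was 2.50, so a lower share of Ty2 was not detectable by entries. For Ty3 both libraries were below the floor and no fold is given.

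**Figure D2:**
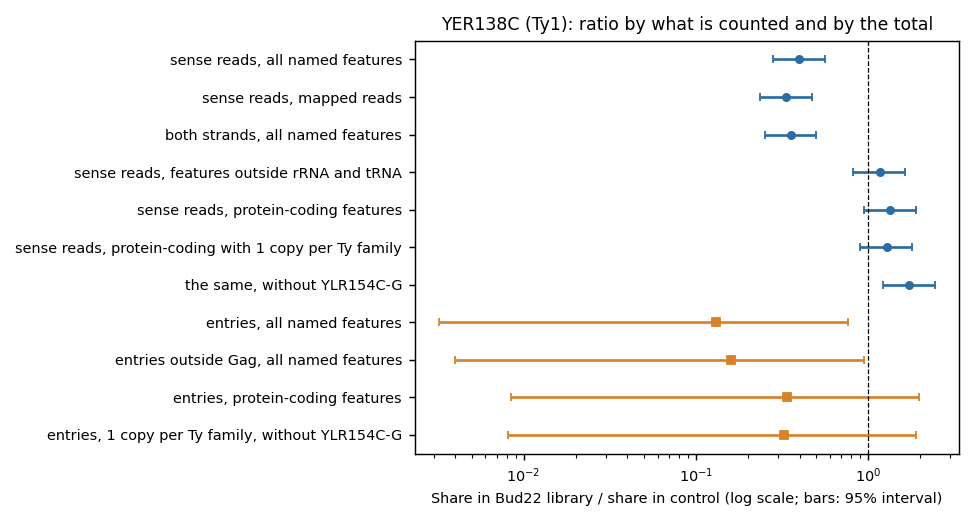
Share of YER138C (Ty1) in the Bud22 library divided by its share in the control, on a log axis, with exact 95% intervals as bars; circles are reads, squares are distinct entries, and each line names what was counted and the total used. The ratio lies below 1 against all named features (0.399 by sense reads and 0.131 by entries), and the intervals include 1 against features outside rRNA and tRNA and against protein-coding features, except that the read ratio without YLR154C-G lies above 1, at 1.73.

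Called by the rule used for every feature (10 or more reads in all, shares that differ 2-fold or more, and a 95% interval that leaves out 1), 36 of the 39 measured Ty copies were lower with Bud22 and 0 were higher. The background was 49.4% lower among all 494 named features measured and 58.2% lower among the 134 protein-coding features outside Ty elements, with 23.7% and 26.9% higher. The 494 include the Ty copies themselves. All 9 Ty2 copies and YLR035C-A were lower, as were 26 of the 29 Ty1 copies. Among copies with Bud22 reads, YDR261C-D, YHR214C-B and YPR158C-D missed the threshold, with ratios of 0.501, 0.566 and 0.566. The lowest ratios of the copies with Bud22 reads were those of YER138C, YML039W and YOL103W-B. The 36 calls are not 36 observations, because the copies share reads. For 23 of them there was no Bud22 read, so they met the minimum through control reads alone. A feature with 0 Bud22 reads that meets the minimum can only be called lower here, within Ty and in the background alike.

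By entries 26 of 32 measured copies were lower, all Ty1, and 0 were higher, against a background of 12.6% lower over all named features and 2.44% over protein-coding features outside Ty (1 of 41). The backgrounds of higher features were 17.5% and 14.6%. All named features include the Ty copies themselves, so the 12.6% contains their calls. Whether a feature could be called lower depended on its control entries. With 0 Bud22 entries, YMR045C (25 control entries) was called lower and YBL005W-B (23 control entries) was not. The backgrounds were not matched to the copies for control entries, so the shares are not like for like. The control entries of the copies include the antisense ones in Gag. With entries outside Gag only, 15 of 29 measured Ty1 copies were lower, 6 of the 16 with Bud22 reads and 9 of the 13 others. The copies also share entries, so neither count can be read as that of separate observations. Against the entries of protein-coding features, 0 of 32 copies were lower and 0 higher, where the background outside Ty was 0.0% lower and 19.5% higher. Against the reads of protein-coding features, the 23 copies without Bud22 reads were lower and 0 were higher, where the background outside Ty was 55.2% lower and 39.6% higher. These 23 met the minimum through control reads alone and could not be called higher, so their calls only restate the absence of Bud22 reads. Background features with 0 Bud22 reads could not be called higher either. The 16 copies with Bud22 reads were called neither lower nor higher against this total.

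The median log2 ratio of the 39 measured copies was -5.75 on a scale with a pseudocount of 0.5, against -0.93 over all named features and -5.09 over protein-coding features outside Ty. With features at 0 set to the floor of 3 reads, the medians were -3.12, -0.93 and -2.44 in the same order. The copies share reads and are not separate observations, and all named features include them. The value of -5.75 was also the median of the 9 Ty2 copies. At copies without Bud22 reads the ratio is set by the control count and by the pseudocount or floor. For the 16 copies with Bud22 reads the median was -1.23, and for the 13 other Ty1 copies -7.73, or -5.14 at the floor. Among copies with at least 10 control reads, 23 of 39 (59.0%) had no read with Bud22. The same held for 72 of 89 protein-coding features outside Ty (80.9%), so absence from the Bud22 library is the usual state of a messenger RNA here. The 16 copies with Bud22 reads list identical Bud22 values and may share their reads. The share among copies therefore depends on how many copies a read aligns to and is not like for like with the share outside Ty.

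Repeat counting gave the Ty frames weight in any total of messenger RNA. Their summed sense counts were 13.3% of protein-coding counts with Bud22 and 16.2% in the control, while 1 copy per family came to 0.946% and 0.890%. With Bud22, the 16 copies that list 57 reads made up 15.1% of the 106 protein-coding features with sense reads. Of 115 protein-coding features called lower by reads, 36 (31.3%) were Ty Gag-Pol copies. By entries the copies held 4.20% of the protein-coding sum with Bud22 and 20.7% in the control.

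The 57 reads of the Bud22 entry stood high but not alone among sequences with 1 entry. Outside Ty, 49 protein-coding features with sense reads rested on 1 entry in the Bud22 library, with a median of 6.0 sense reads and a highest value of 58. That highest value was shared by IRC9, with 58 reads in the Bud22 library against 0 in the control, and the kinase gene YAK1, with 58 against 2. Whether IRC9 and YAK1 list the same entry was not tested. No Ty frame came near these numbers per entry in the control, where YER138C had 2.10 reads per entry over both strands. Over all protein-coding features the sense reads per entry were 18.1 in the Bud22 library, against 2.29 in the control.

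By reads per feature, without regard to length, Ty1 stood near the top of the control's protein-coding rows. Only 5 protein-coding features outside Ty had more control sense reads than the 88 at YER138C. These were YLR154C-G (3439 reads with Bud22 and 5019 in the control), YJL047C-A (17 and 298), the pyruvate kinase gene CDC19 (0 and 99), KAE1 (39 and 98) and URM1 (0 and 91). In the Bud22 library 14 protein-coding features outside Ty had more sense reads than the 57 at the Ty1 copies.

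**Figure D3:**
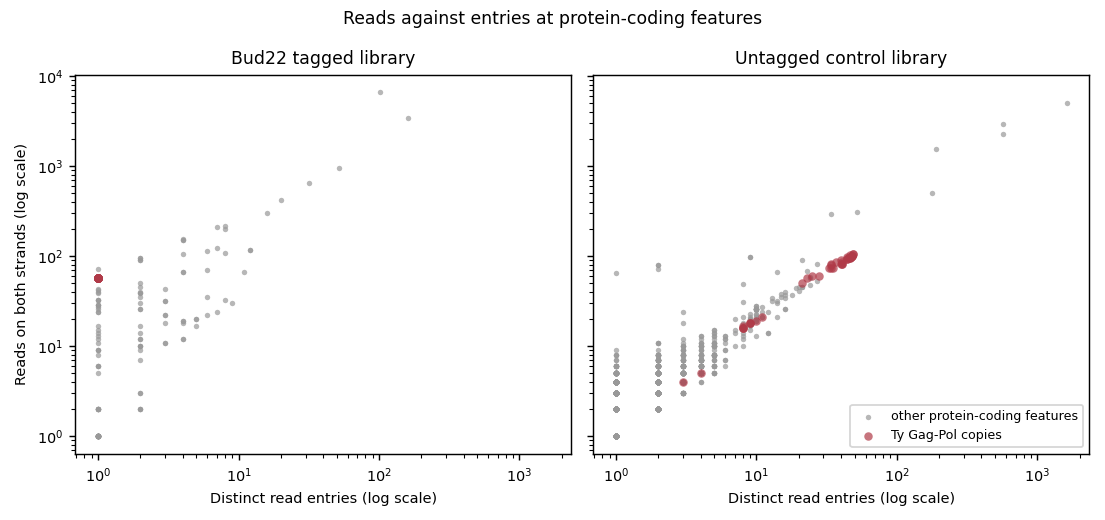
Reads on both strands against distinct read entries for each protein-coding feature with reads, on log axes, in the Bud22 tagged library (left) and the untagged control (right); Ty Gag-Pol copies are the larger red points. The 16 copies with Bud22 reads coincide at 1 entry and 57 reads, and the control copies follow the other features, up to 49 entries.

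Within the frames, the strands of the control separated between Gag and Pol. The Gag frame lies inside the Gag-Pol frame, so a read in Gag counts at both rows and the difference of the rows gives the reads in the rest of the frame, mostly Pol. YER138C had 88 sense reads in the control, 5 of them in its Gag frame, which is 5.68% (exact 95% interval 1.87 to 12.8). Its 13 antisense reads were all in Gag, with a lower 95% limit of 75.3%. Both intervals treat reads as independent, while the Gag row held only 9 entries over both strands, so they are narrower than the entries allow. The Bud22 reads of this copy lay outside Gag, and as they form 1 entry, this position is a single observation. Gag and Gag-Pol rows share reads by construction, and a read across their border counts in both.

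The same separation held at every copy whose Gag frame had a row in the control. In all 33 such copies the antisense count of the Gag frame equalled that of the whole frame, in 26 of 26 Ty1 copies and 7 of 7 Ty2 copies. At the Ty1 copies Gag held 2 to 7 sense and 10 to 21 antisense reads, against 46 to 83 sense reads and no antisense read in the rest of the frame. At the Ty2 copies Gag held 0 sense and 2 to 4 antisense reads, while 14 to 17 sense reads lay in the rest. The copies share these reads, so the agreement among them restates few reads: the Gag rows of Ty1 held 5 to 11 entries and those of Ty2 1 or 2.

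Frames that lack Gag, or whose Gag frame had no row, had no antisense reads among Ty1 and Ty2. Of the Ty1 frames 3 had no antisense read in the control: YAR009C, which lacks Gag, and YMR045C and YBL005W-B, whose Gag frames had no row. YMR045C had 0 reads with Bud22 against 60 sense reads in the control, and YBL005W-B 0 against 57. YAR010C, the Gag frame that lies next to YAR009C, had 4 sense and 16 antisense reads in the control. Among Ty2 copies YFL002W-A and YGR161W-B had 16 sense reads each in the control, no antisense read and no row for Gag. In Ty3, YGR109W-B had 3 antisense reads in the control and no row for its Gag frame, so these reads lay outside Gag. For YIL082W-A no Gag frame was matched, and the position of its 4 antisense reads is not known.

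**Figure D4:**
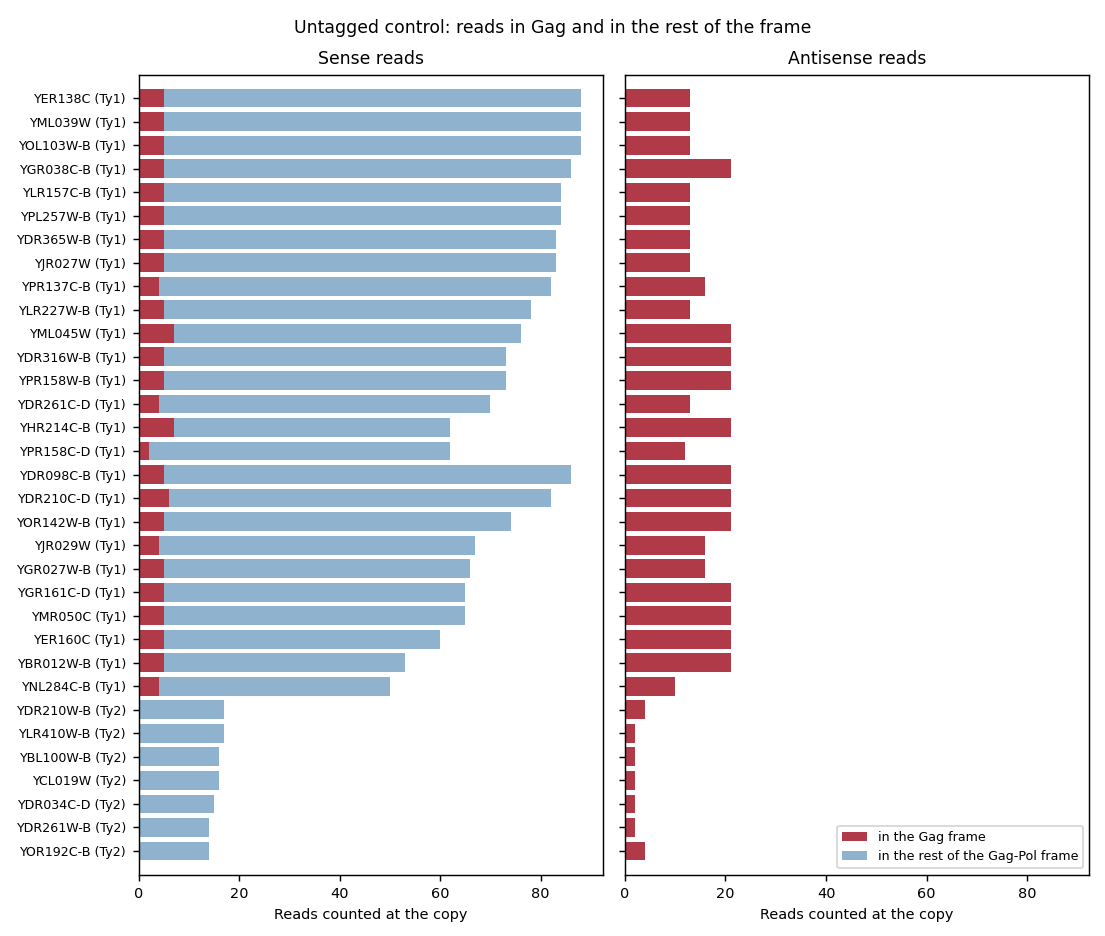
Control reads at the 33 Gag-Pol frames whose Gag frame also had a row, split into reads in Gag (red) and in the rest of the frame (blue), for sense (left) and antisense (right). Sense reads lie mostly outside Gag, with at most 7 inside it, and every antisense read, up to 21 a copy, lies inside Gag.

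Reads on both strands of a feature were uncommon elsewhere. Among features with at least 10 reads over both strands in the control, 33 of 39 Ty copies had reads on both, against 7 of 114 protein-coding features outside Ty (6.14%). The copies share reads, so the 33 are not separate observations to weigh against the 114. In the Bud22 library no Ty copy had an antisense read. The control antisense share at YER138C was 12.9% (7.04 to 21.0). Outside Ty, antisense reads were 43.1% of the protein-coding reads of both strands in the control, so antisense reads as such were not particular to Ty. Of the 114 features 23 had more antisense than sense reads, while their median antisense share was 0.0%. Since the 57 Bud22 reads are 1 entry, their strand is a single observation, and a difference in strand between the libraries was not detectable.

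Copies sorted by their control antisense reads also differed in whether they carried the Bud22 entry, although the entry lies outside Gag. All 9 Ty1 copies with 13 antisense reads carried it, as did 5 of the 12 copies with 21 and 1 of the 3 copies with 16. The copy with 12 carried it, and the copy with 10 and the 3 copies without antisense reads did not. The copies share reads on both measures, and how many independent groups they form is not known from the tables, so this is a description only.

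Gag frames and other Ty rows had no reads in the Bud22 library. Of 45 Gag frames listed, 0 had a row with Bud22 and 37 had one in the control, all 37 with more antisense than sense reads. None reached 10 sense reads, the highest having 7. YOR343W-B, a Gag-Pol frame outside the listed members, had 0 reads with Bud22 against 16 sense and 4 antisense reads on 10 entries in the control, like the Ty2 members. The Ty4 frames YHL009W-B and YJL113W were without reads in the Bud22 library and had, in the control, 0 sense and 3 antisense reads each on 1 entry, all in Gag.

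The tRNAs that Ty1 uses were set beside the frames. Initiator methionine tRNA, which primes reverse transcription of Ty1, had 0 reads with Bud22 at each of IMT1 to IMT4. The control had 23 reads on 8 entries at each of them. By share of reads each was 12.5-fold lower at the floor of 3 reads, and the exact upper limit of the ratio was 0.107. Of 249 measured tRNA features, 40.6% were lower, and the entries were too few for a call. HSX1, the arginine tRNA whose scarcity promotes the Ty1 frameshift, had 32 reads on 3 entries with Bud22 against 31 reads on 11 entries in the control, a ratio of 0.635 (0.375 to 1.08) by reads and 1.71 (0.306 to 6.48) by entries over all named features, with no settled direction.

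Host genes of Ty1 were barely covered. Of 26 listed genes for transcription, RNA turnover, restriction and integration, 0 had sense reads with Bud22 and 9 had them in the control. Of the 2032 protein-coding features with a row in either library, 106 had sense reads with Bud22 and 1723 in the control. The 26 include genes without a row, so the shares are not like for like, and low coverage is not particular to these genes. Among the 26 only GCN4, a transcription activator that binds Ty1, reached the minimum, with 0 reads with Bud22 against 21 reads on 11 entries in the control. It was called lower by reads and not by entries. By share of reads it was 11.4-fold lower at the floor of 3 reads, and the exact upper limit of the ratio was 0.118. RPC53, a subunit of RNA polymerase III, had 0 reads with Bud22 against 6 in the control, and GCR1, a transcription activator, 0 against 4. The messenger RNA of BUD22 itself had no reads in either library.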

How the data were processed

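Read counts per feature were deposited by the authors as raw counts on the sense and antisense strands, made with pyReadCounters of Counters version 1.2.1, per the file headers. The third count column, named as a number of reads, was read as distinct entries from its values. It exceeded the sum of both strands in 0 rows of either file, which allows this reading but does not establish it. No coordinates or sequences are printed, since neither labels nor headers state the genome build, and aligner settings, trimming and duplicate removal are likewise unstated. Depth was 317922 reads with Bud22 and 296925 in the control, with 188065 and 97270 mapped reads. Entries over named features numbered 5920 and 37130. The sense totals over named features, 215982 and 132895, exceed the mapped reads, as a read can count at several features. Intergenic regions were left out of totals. Shares got exact Clopper-Pearson 95% intervals and ratios exact conditional binomial ones (scipy 1.17.1). Only the ratio intervals and calls were checked, on simulated independent counts without repeated reads per entry or reads shared between copies. Entries were limited to the sense count. Gag frames were paired with Gag-Pol frames through the R64 reference table. Groups follow the genotype labels. With 1 library per group no test was made.

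The members, lists and rules were chosen with earlier results of these data known. Values are given for the most counted copy of each family, the 5 Ty copies with most control reads, copies with Bud22 reads or more antisense than sense reads, and the highest and lowest ratios. Alternatives were other totals, entries, sums over copies, both strands, other minimums, pseudocounts, folds and interval levels.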

Additional observations from a re-analysis of the deposited data

How the results depend on the processing

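No paired analysis was possible because each group holds 1 library. The ratio of the most counted Ty1 copy (0.399) turned above 1 with totals outside rRNA and tRNA (1.17), of protein-coding features (1.34) and of protein-coding features with 1 copy per Ty family (1.28, chosen after seeing the data), each with an interval including 1, and to 1.73 with the last total without YLR154C-G (added later), where the interval left out 1. It was 0.131 by entries, 0.161 by entries outside Gag (added later), 0.265 summed over copies, and below 0.0270 at YDR098C-B, a copy without Bud22 reads (added later). The upper limit of the Ty2 ratio (0.149) was 0.437 with totals outside rRNA and tRNA, 0.503 with protein-coding totals, 0.225 at 99% and 2.50 by entries. The count of copies called lower (36) fell to 23 with a 4-fold threshold, with totals outside rRNA and tRNA and with protein-coding totals (added later), to 15 with entries outside Gag (added later) and to 0 with entries over protein-coding entries (added later). No copy was called higher in any of these settings, and copies without Bud22 reads could not be. With protein-coding totals the 23 lower copies were those without Bud22 reads, so that count restates their absence. The 28 other values computed kept their direction, though not all their size: the Ty2 limit was 0.0163 summed over copies, the median log2 ratio of the copies (-5.75) was -3.99 with protein-coding totals, 26 copies were lower by entries, and the Ty1 ratio by entries over protein-coding entries was 0.340 with an interval including 1. The totals differ because tRNA and rRNA make up most reads, and 1 entry limits every Ty1 value with Bud22. Ty3 had too few reads for a ratio in any setting. No result met the rules for a closer look.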
